A study of Homo sapiens with 18 samples.

Results

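The alpha-arrestins TXNIP, ARRDC1, ARRDC2, ARRDC3 and ARRDC4 were examined in poly(A) RNA-seq read counts of HAP1, a human line with close to 1 set of chromosomes that descends from leukaemia cells and grows attached to the dish. The 5 genes were listed by name among 63677 gene identifiers, and ARRDC3 was put on the list because its RNA fell far on starvation. Its starvation values are therefore given as a description, with no test. The 6 groups held 3 libraries each. They were parental HAP1 (WT), the ATG7 knockout line (ATG7KO) and the line labelled RB1CC1KO, each either in full medium (IMDM with 10% heat-inactivated fetal calf serum and antibiotics) or after 6 h in EBSS (Earle's balanced salts), a glucose-containing buffer without amino acids or serum. Glucose levels in full medium and EBSS were not compared here. A change in glucose therefore cannot be told apart from the loss of amino acids and serum. The labels name 1 line per genotype and no clones, so genotype and line cannot be told apart. ATG7 is needed to conjugate the ATG8 proteins of autophagosomes, and RB1CC1 (FIP200) is a scaffold of the kinase complex that starts autophagy.

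Alpha-arrestins share the arrestin fold with the beta-arrestins that switch off G protein-coupled receptors. Most carry short proline-rich motifs in their tails that bind the WW domains of NEDD4-family ubiquitin ligases, and so bring a ligase to a receptor or transporter that is then removed from the plasma membrane. TXNIP also binds thioredoxin and restrains glucose uptake, and with ARRDC4 it is a well-known target of the glucose-sensing factor MondoA and its partner MLX, which bind carbohydrate response elements. ARRDC3 is an adaptor for integrin beta-4, and ARRDC1 recruits the ESCRT protein TSG101 to the plasma membrane, where vesicles bud outward.

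TXNIP could not be followed with the gene name tables used here. The 1 identifier that the gene name tables pair with TXNIP (ENSG00000265972) was listed at 0 reads in all 18 libraries. The limit lies in these tables and not in the counts: the submitters' older build may carry TXNIP under another identifier, one that does hold reads. In all, 11151 identifiers, 373 of them abundant enough to test, had no name here. The 0 therefore says nothing about the level of TXNIP RNA, and the family is described on its 4 other members, all of which passed the filter on low counts. ARRDC5, a relative outside the list, also had 0 reads.

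Reads assigned to genes numbered 4892072 in ATG7KO EBSS replicate 3 and 26005942 in RB1CC1KO EBSS replicate 2, and between 11994110 and 19073798 in the other libraries. ATG7 was at 15.56 ± 1.3 CPM (counts scaled to a common library size with TMM factors) in WT and 4.017 ± 0.436 in ATG7KO in full medium (SD, n = 3 each), a log2 fold change of -1.95 ± 0.12 (SE; adjusted p = 8.811e-15 by edgeR's quasi-likelihood test with Benjamini-Hochberg adjustment, used throughout). In EBSS the gap was smaller, at 16.11 ± 1.68 CPM in WT and 10.38 ± 0.53 CPM in ATG7KO (-0.62 ± 0.12; adjusted p = 0.0001492). RB1CC1 was not lower in its labelled knockout: it was at 104.9 ± 10.3 CPM in WT and 156.9 ± 12.7 CPM in the RB1CC1KO-labelled line (0.58 ± 0.07; adjusted p = 8.304e-08), so that line is named by its label below. Of the blood cell markers that would tell a haematopoietic culture, GATA1 and MPO were at 0 in 18 of 18 libraries and PTPRC, SPI1, CD34, ITGAM and CD33 never passed 0.635 CPM, while TAL1 (1.27 to 54.7 CPM), RUNX1 (4.24 to 14.8), KIT (0.424 to 12.2) and CD44 (0.543 to 6.14) were present. Epithelial and mesenchymal lists were as mixed: KRT18 stood at 45.8 to 78 CPM with EPCAM at 3.73 or less, and VIM at 496 to 1250 CPM with COL1A2 at 1.27 or less. In bulk RNA, fewer cells with a transcript and less of it per cell cannot be told apart.

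The promoter letters of ARRDC3 and ARRDC4 are shown because their RNAs behaved least alike on starvation. RefSeq promoter windows of 300 bases (250 before and 50 after a start; GRCh38.p14) matched all 5 members, with 2 windows each for TXNIP, ARRDC2 and ARRDC3. The longer stretches below are the parts upstream of annotated exons, and the short one is a site closer to the start, all 5′ to 3′ on the gene's strand, with CCAAT (the NF-Y box, or ATTGG when on the other strand), the E box CACGTG and the FOXO letters GTAAACA (or TGTTTAC) in capitals.
ARRDC3 outer start, chr5:91383360-91383567, minus strand: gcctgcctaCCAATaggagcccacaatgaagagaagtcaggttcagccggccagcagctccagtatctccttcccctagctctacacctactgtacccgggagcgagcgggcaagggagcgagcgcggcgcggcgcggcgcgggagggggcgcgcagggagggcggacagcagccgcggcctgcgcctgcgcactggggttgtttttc
ARRDC3 inner start, chr5:91380152-91380347, minus strand: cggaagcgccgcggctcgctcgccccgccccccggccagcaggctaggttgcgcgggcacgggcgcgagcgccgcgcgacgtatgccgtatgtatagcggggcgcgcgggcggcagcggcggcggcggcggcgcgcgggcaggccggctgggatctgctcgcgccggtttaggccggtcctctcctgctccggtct
ARRDC3 inner start, FOXO letters, chr5:91380114-91380132, minus strand: ggcactTGTTTACcacggc
ARRDC4, chr15:97960453-97960697, plus strand: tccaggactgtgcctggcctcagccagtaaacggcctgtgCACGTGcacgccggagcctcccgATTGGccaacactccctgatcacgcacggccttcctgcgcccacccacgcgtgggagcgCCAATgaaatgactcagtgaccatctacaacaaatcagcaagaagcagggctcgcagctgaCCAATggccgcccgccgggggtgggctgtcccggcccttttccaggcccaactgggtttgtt

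ARRDC4 held 1 E box, at position -210 from its start, and 3 CCAAT boxes, and ARRDC3 held no E box in either window. Neither ARRDC4 nor ARRDC3 held a match to the loose carbohydrate response element given below. Over all 35116 windows, searched on both strands, 7.26% held CACGTG, 34.6% held CCAAT and 3.42% held GTAAACA. The FOXO letters of ARRDC3 began at position -29 from the inner start, and TXNIP held them too, at -124 from its outer start, with 2 CCAAT boxes. TXNIP, whose RNA could not be followed, carried 1 match to a loose carbohydrate response element (CACGNG and CNCGNG with 5 bases between them, in 0.501% of windows; it can overlap an E box), shown in capitals.
TXNIP, chr1:145996645-145996673, minus strand: gatgtgCACGAGGGCAGCACGAGcctccg
The SP1 letters GGGCGG, present in 45.0% of windows, occurred 10 times for ARRDC1, whose window was 81.3% G and C against a median of 58.7%. They occurred 6 and 2 times in the ARRDC2 windows, 2 times in each ARRDC3 window and 1 time for ARRDC4. No member window held TGATGNAA, the composite element of ATF4 and C/EBP factors (3.62% of windows), or the cAMP response element TGACGTCA (1.85%). These are matches of letters and were not tested as sites.

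ARRDC3 (ENSG00000113369, chromosome 5) was, per length, the most abundant measured alpha-arrestin in full medium and the least abundant in EBSS. In WT its level was 55.7, 65.58 and 61.89 CPM in full medium (replicates 1, 2 and 3) and 3.972, 3.441 and 3.395 CPM in EBSS. In ATG7KO it was 65.34, 69.84 and 65.76 CPM in full medium and 3.812, 4.075 and 5.304 CPM in EBSS. The RB1CC1KO-labelled line had 59.62, 70.21 and 59.04 CPM in full medium and 3.201, 3.472 and 4.43 CPM in EBSS. Every EBSS library lay far below every full-medium library, and within a medium the 3 lines overlapped.

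The difference was 16.99-fold in WT (log2 fold change -4.09 ± 0.12, SE), 16.1-fold in ATG7KO (-4.01 ± 0.12) and 17.21-fold in the RB1CC1KO-labelled line (-4.11 ± 0.11). Counted from the largest fall among 15179 genes, ARRDC3 held place 19 in WT, 36 in ATG7KO and 34 in the RB1CC1KO-labelled line. These contrasts chose the gene and carry no test. The low levels rest on 25 to 82 reads per EBSS library, against 762 to 1322 reads in full medium. Upper-quartile scaling, which places the median gene lower in EBSS, put the WT value at -4.24.

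ARRDC3 was not chosen on a difference between lines, and there no difference passed the test. The levels compared here also entered the fall that chose it, so these tests are not separate from that choice. ATG7KO against WT gave 0.13 ± 0.08 in full medium (adjusted p = 0.3663) and 0.21 ± 0.17 in EBSS (adjusted p = 0.4925). The RB1CC1KO-labelled line against WT gave 0.04 ± 0.08 in full medium (adjusted p = 0.784) and 0.02 ± 0.16 in EBSS (adjusted p = 0.9385). The starvation log2 fold change of ATG7KO minus that of WT was 0.08 ± 0.19, and that of the RB1CC1KO-labelled line minus WT was -0.02 ± 0.18, both given without a test.

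**Figure D1:**
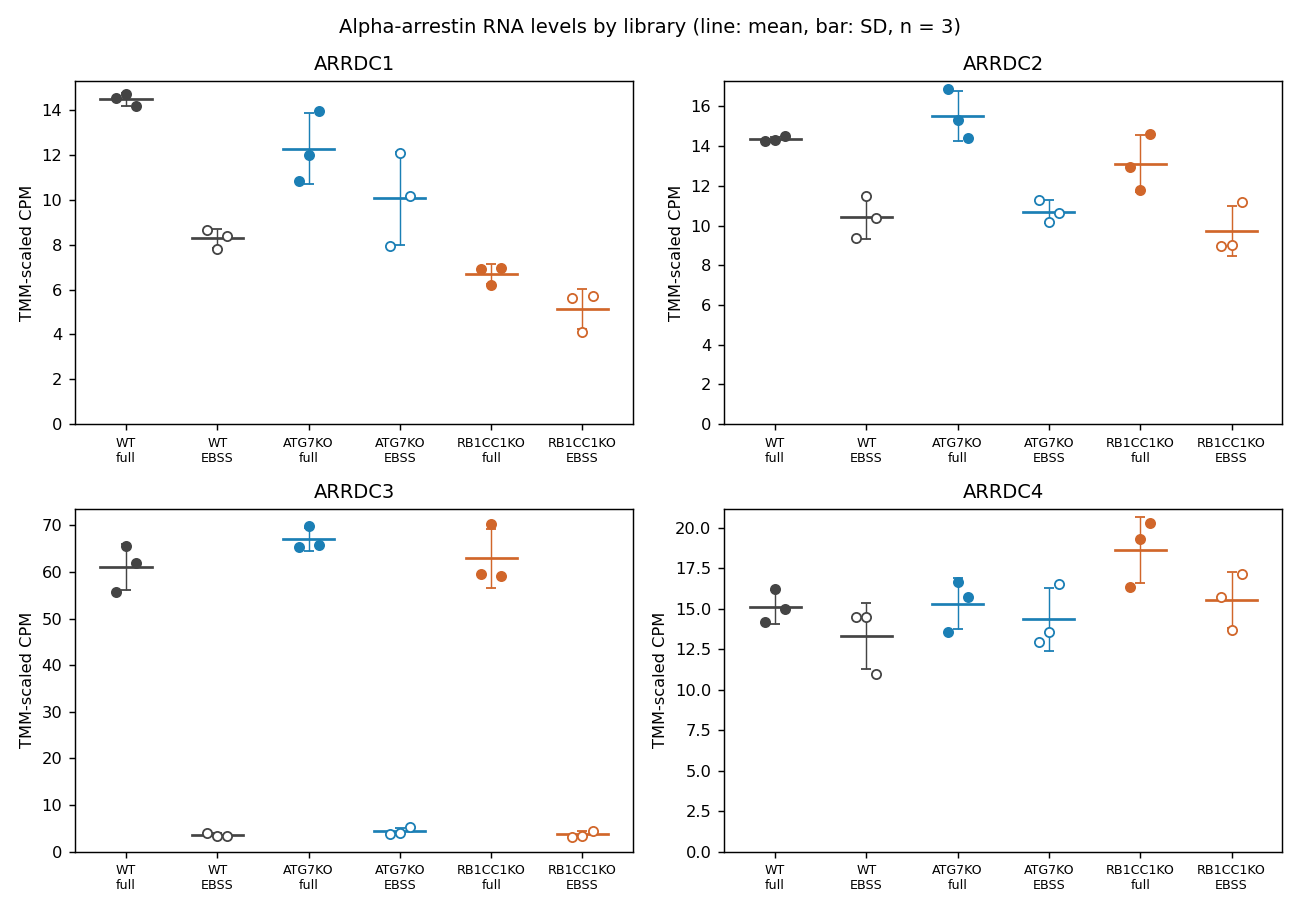
TMM-scaled CPM of ARRDC1, ARRDC2, ARRDC3 and ARRDC4 on linear axes that start at 0, for each of the 18 libraries in the 6 groups (filled points: full medium, open points: EBSS; line: group mean; bar: SD, n = 3). ARRDC3 dropped from 55.7 or more to 5.304 or less in every line, and ARRDC1 was lowest in the RB1CC1KO-labelled line.

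ARRDC2 (ENSG00000105643, chromosome 19), a member with few assigned functions, fell on starvation in all 3 lines, and by much less than ARRDC3. In WT its level was 14.25, 14.29 and 14.49 CPM in full medium and 9.363, 11.51 and 10.38 CPM in EBSS. In ATG7KO it was 16.86, 15.3 and 14.41 CPM in full medium and 11.31, 10.19 and 10.61 CPM in EBSS. The RB1CC1KO-labelled line had 12.97, 11.77 and 14.62 CPM in full medium and 8.952, 9.019 and 11.18 CPM in EBSS. All 9 EBSS libraries lay below all 9 full-medium libraries, while the lines overlapped within each medium. How many of all genes separate in this way was not counted, here or for the other members.

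The log2 fold change of ARRDC2 was -0.46 ± 0.12 in WT (adjusted p = 0.001014), -0.53 ± 0.12 in ATG7KO (adjusted p = 0.0002601) and -0.44 ± 0.12 in the RB1CC1KO-labelled line (adjusted p = 0.001232). Starvation moved most genes in these cells, so a call is common: 64.5% of tested genes were called in WT, 62.9% in ATG7KO and 65.1% in the RB1CC1KO-labelled line. Lower calls alone made up 32.1%, 30.6% and 33.3%. ARRDC2 kept its 3 calls under every alternative setting run. Its response did not pass the test of a difference from WT in ATG7KO (-0.08 ± 0.17; adjusted p = 0.8852) or in the RB1CC1KO-labelled line (0.02 ± 0.17; adjusted p = 0.9764).

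ARRDC1 (ENSG00000197070, chromosome 9), the TSG101-binding member, fell on starvation in WT and was low in the RB1CC1KO-labelled line in both media. In WT it was at 14.55, 14.73 and 14.17 CPM in full medium and 8.654, 7.821 and 8.393 CPM in EBSS. In ATG7KO it was at 10.85, 12.0 and 13.98 CPM in full medium and 7.947, 12.09 and 10.18 CPM in EBSS. The RB1CC1KO-labelled line had 6.9, 6.193 and 6.979 CPM in full medium and 5.632, 4.107 and 5.696 CPM in EBSS. WT in full medium stood above all other groups with no shared range. ATG7KO in full medium, ATG7KO in EBSS and WT in EBSS followed in that order, each overlapping the next, and both groups of the RB1CC1KO-labelled line lay below all others.

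In WT the log2 fold change of ARRDC1 on starvation was -0.81 ± 0.14 (adjusted p = 4.73e-06), or 1.75-fold. In the RB1CC1KO-labelled line it was -0.40 ± 0.16 (adjusted p = 0.02346), a call lost without its full-medium replicate 1 (adjusted p = 0.05909) or 3 (0.07755) and without its EBSS replicate 2, where the value was -0.24 (adjusted p = 0.2234). Over all alternatives for that value the adjusted p ran from 0.002895 to 0.2234. In ATG7KO the value of -0.29 ± 0.14 did not pass the test (adjusted p = 0.07725). It did pass without EBSS replicate 2 (-0.55; adjusted p = 0.004257), without full-medium replicate 1 (-0.37; adjusted p = 0.04243) and with upper-quartile scaling (-0.45; adjusted p = 0.00686), and the adjusted p ran up to 0.4301 over the alternatives.

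Against WT, ARRDC1 in the RB1CC1KO-labelled line was lower by 2.167-fold (-1.12 ± 0.14 on the log2 scale; adjusted p = 1.51e-07) in full medium and by 1.636-fold (-0.71 ± 0.15; adjusted p = 0.0004639) in EBSS. Both calls held under every alternative setting run. Of the 4 measured members, ARRDC1 alone was called in these comparisons, in which 17.2% of all tested genes were called in full medium and 31.6% in EBSS. In ATG7KO against WT, 0 of 4 members were called in either medium by edgeR or by DESeq2, and 0 had an unadjusted p under 0.05, where 10.5% and 13.2% of genes were called. ARRDC1 there gave -0.24 ± 0.13 in full medium (adjusted p = 0.2718) and 0.28 ± 0.15 in EBSS (adjusted p = 0.2516).

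The starvation response of ARRDC1 in ATG7KO minus that in WT was 0.52 ± 0.20, which failed the correction (adjusted p = 0.2056). For the RB1CC1KO-labelled line minus WT it was 0.41 ± 0.21 (adjusted p = 0.255). None of the 3 tested members had a response that differed from WT after adjustment in either line, by edgeR or DESeq2, and the 1 unadjusted p under 0.05 was the ARRDC1 value in ATG7KO. Over all genes, 1.05% were called for ATG7KO minus WT and 8.16% for the RB1CC1KO-labelled line minus WT.

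ARRDC1-AS1, an antisense gene that shares 29 exon bases with ARRDC1, fell on starvation in every line, by 0.50 ± 0.13 in WT (adjusted p = 0.0008264), by 0.61 ± 0.14 in ATG7KO (adjusted p = 0.0001895) and by 0.66 ± 0.13 in the RB1CC1KO-labelled line (adjusted p = 3.203e-05), each on the log2 scale. Unlike its partner, it was not called in the RB1CC1KO-labelled line against WT, at 14.65 ± 1.65 and 12.91 ± 0.856 CPM in full medium (adjusted p = 0.3627) and at 10.27 ± 0.42 and 8.178 ± 1.45 CPM in EBSS (adjusted p = 0.05682). The difference between the pair was not tested. The kit keeps strand, but the strand setting of the counting is not given in the sources used here. How reads in the shared bases were assigned is therefore not known.

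Markers of other lineages also differed between the lines. In the RB1CC1KO-labelled line against WT in full medium, 3 of 4 tested epithelial markers and 4 of 5 tested mesenchymal markers were called lower. Of 4 tested haematopoietic markers 1 was higher and 1 lower. Of all tested genes, 17.2% were called in that comparison. The summed epithelial level was 102 to 113 CPM in WT and 71.8 to 81.8 CPM in the RB1CC1KO-labelled line, and the summed mesenchymal level 664 to 702 and 568 to 603 CPM. The haematopoietic sum was 63.8 to 73.9 and 71.7 to 79.5 CPM. In EBSS the epithelial sums were 116 to 122 and 85.6 to 96.2 CPM, the mesenchymal sums 1040 to 1070 and 1020 to 1110 CPM, and the haematopoietic sums 32.9 to 38.9 and 28.6 to 31 CPM. VIM made up most of each mesenchymal sum and was not called in EBSS (0.10, adjusted p = 0.1522). THY1 (-5.67), PDGFRA (-3.20), SPARC (-0.935) and COL1A1 (-0.305) were each called lower there. EPCAM, KRT18, ESRP1 and CD44 were also called lower in EBSS, while KRT8, TAL1, KIT and RUNX1 were not called. Of all tested genes, 31.6% were called in that EBSS comparison. CDH1 never passed 0.258 CPM in any library. ATG7KO, in which ARRDC1 was not called, also differed from WT in full medium, where 10.5% of all tested genes were called. There 4 of 4 tested haematopoietic and 4 of 4 epithelial markers were lower, and of 5 mesenchymal markers 3 were higher and 1 lower. The ATG7KO sums there were 22.1 to 23, 62.5 to 67 and 963 to 1020 CPM. The part of these shifts in the ARRDC1 values was not tested.

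ARRDC4 (ENSG00000140450, chromosome 15), like TXNIP a glucose-responsive gene that restrains glucose uptake, had the smallest starvation values of the 4 measured members in each line. In WT its level was 14.18, 16.22 and 14.96 CPM in full medium and 14.47, 14.52 and 10.96 CPM in EBSS. In ATG7KO it was 13.58, 16.65 and 15.72 CPM in full medium and 12.92, 13.58 and 16.55 CPM in EBSS. The RB1CC1KO-labelled line had 16.33, 19.31 and 20.27 CPM in full medium and 15.71, 13.72 and 17.16 CPM in EBSS. Each group overlapped its neighbour in the order of means, from 18.64 ± 2.05 CPM (RB1CC1KO-labelled line, full medium) to 13.32 ± 2.04 CPM (WT, EBSS), though the top group shared no range with either WT group.

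The log2 fold change of ARRDC4 on starvation was -0.19 ± 0.12 in WT (adjusted p = 0.1752) and -0.14 ± 0.13 in ATG7KO (adjusted p = 0.3527), and neither passed the test. Both did with upper-quartile scaling (-0.34, adjusted p = 0.01491, and -0.30, adjusted p = 0.0379). In the RB1CC1KO-labelled line the value of -0.27 ± 0.12 passed (adjusted p = 0.03853) but did not with DESeq2 (adjusted p = 0.06095), nor without full-medium replicate 2 (0.1072) or 3 (0.1935), nor without EBSS replicate 1 (0.06252) or 2 (0.2186), where it was -0.18. Its alternatives gave adjusted p from 0.002132 to 0.2186. Against WT in full medium that line gave 0.30 ± 0.12 (adjusted p = 0.08104), which passed only without its replicate 1 among the alternatives (0.38; adjusted p = 0.0332, range up to 0.3451).

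Across the 3 tested members, 2 of 3 were called lower on starvation in WT (ARRDC1 and ARRDC2), 1 of 3 in ATG7KO (ARRDC2) and 3 of 3 in the RB1CC1KO-labelled line, and none was called higher. These are too few genes to set against the background of 32.1% to 33.3% lower calls in WT and the RB1CC1KO-labelled line. With upper-quartile scaling 3 of 3 were called lower in each line. That scaling moved the median log2 fold change of all genes from -0.02 to -0.17 in WT, from -0.01 to -0.17 in ATG7KO and from -0.03 to -0.17 in the RB1CC1KO-labelled line. The share of higher genes among those called moved with it from 50.3%, 51.3% and 48.9% to 37.4%, 37.2% and 37.0%.

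**Figure D2:**
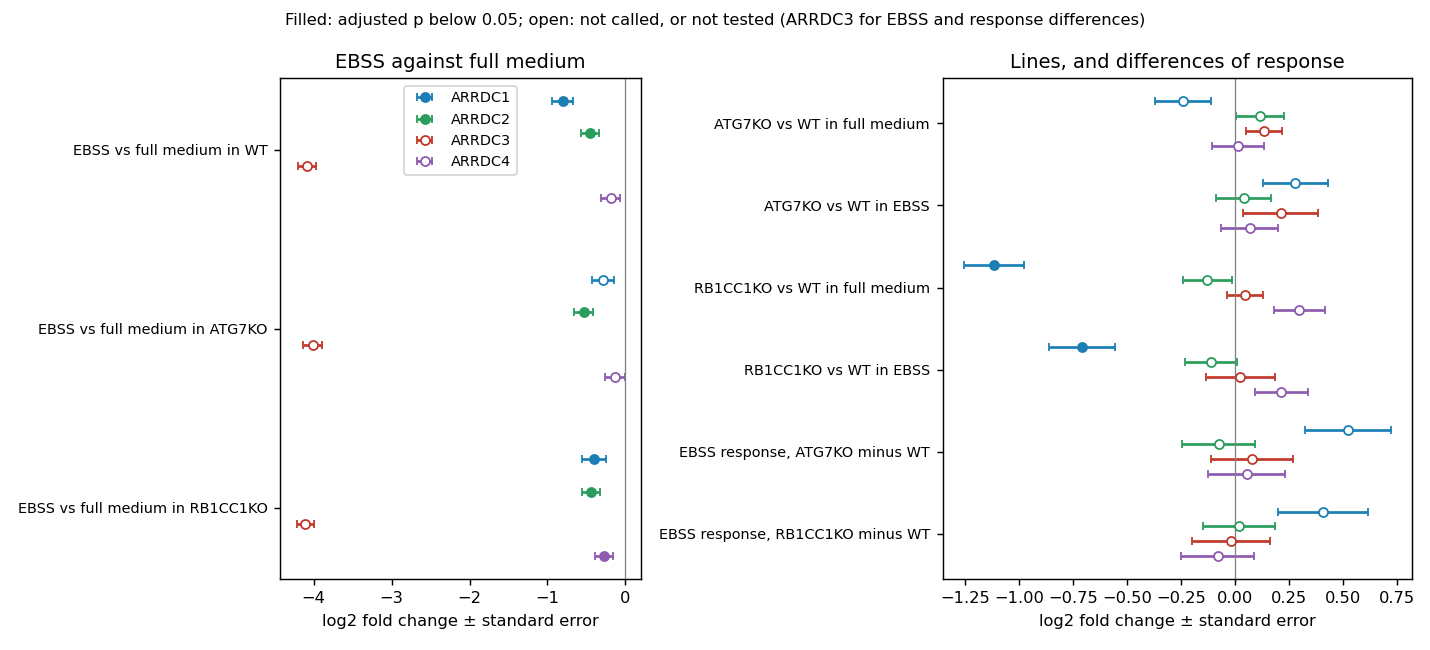
Log2 fold change with its standard error for the 4 measured alpha-arrestins, starvation contrasts on the left and comparisons between lines and of responses on the right, on different axis ranges (filled: adjusted p below 0.05; open: not called, or not tested for ARRDC3 in starvation contrasts and response differences). ARRDC3 lay near -4 in every line, and ARRDC1 was the member called between lines, at -1.12 and -0.71.

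The 4 measured members, TXNIP left out, held different shares of their summed level in the 2 media. Per length (CPM per kilobase of merged exons), the 4 measured members summed to 22.97 ± 1.28 in WT in full medium and 8.416 ± 0.527 in EBSS (SD, n = 3). The sums were 23.9 ± 0.817 and 9.36 ± 0.826 in ATG7KO, and 21.92 ± 1.22 and 8.006 ± 0.964 in the RB1CC1KO-labelled line. ARRDC3 held 53.82% ± 1.47 of the WT sum in full medium and 8.685% ± 0.699 in EBSS, and from 56.81% to 9.484% in ATG7KO and from 58.16% to 9.361% in the RB1CC1KO-labelled line. The shift follows from the fall that chose ARRDC3 and is a description.

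With ARRDC3 low, ARRDC4 held the largest share in EBSS, at 38.7% ± 3.7 in WT, 37.6% ± 2.62 in ATG7KO and 47.67% ± 1.02 in the RB1CC1KO-labelled line, from 16.16%, 15.72% and 20.86% in full medium. ARRDC2 held 26.75%, 24.85% and 26.19% of the sum in EBSS. ARRDC1 held 25.87% ± 2.43 in WT and 28.07% ± 4.56 in ATG7KO in EBSS but 16.77% ± 1.75 in the RB1CC1KO-labelled line, and in full medium 16.53%, 13.44% and 8.02%. Dividing by the longest transcript instead of merged exons placed the ARRDC4 share in WT at 13.92% in full medium and 34.25% in EBSS.

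**Figure D3:**
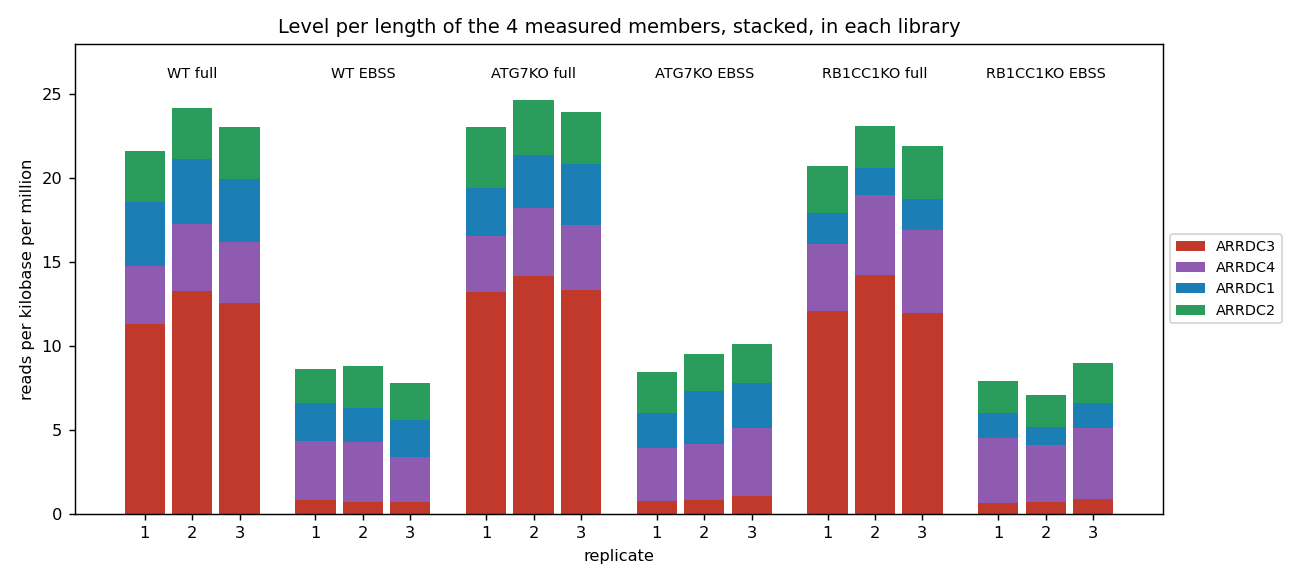
Level per length (CPM per kilobase of merged exons) of the 4 measured members stacked for each library, grouped by line and medium. The red ARRDC3 segment fills 52.14% to 61.52% of each full-medium bar and 7.933% to 10.65% of each EBSS bar, and the ARRDC1 segment is thinnest in the RB1CC1KO-labelled line.

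The genes whose 6 group means ran closest to those of ARRDC3, by root mean square distance of centred log2 CPM, were CCDC71 (distance 0.222), PLPP6 (0.254), TMEM177 (0.286), TTC30B (0.306) and TTC30A (0.356). CCDC71 dropped from a mean of 24.2 CPM over the 9 full-medium libraries to 1.63 CPM over the 9 EBSS libraries, and TMEM177 from 19.8 to 0.947 CPM. These 5 genes have at most 3 exons in any annotated transcript, and PLPP6, TTC30A and TTC30B have 1, whereas ARRDC3 has up to 8. TTC30A and TTC30B are near-identical neighbours on chromosome 2, so the split of reads between them is uncertain. The rule that picked these genes used their starvation values, which are therefore no test.

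For ARRDC4 the nearest profiles were ZC3H13 (0.017), HUNK (0.021), ENO2 (0.031), NUBP1 (0.039) and PAN2 (0.041). ENO2 is a glycolytic enolase. These genes were picked on the group means themselves, so their values in the same groups are a description.

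**Figure D4:**
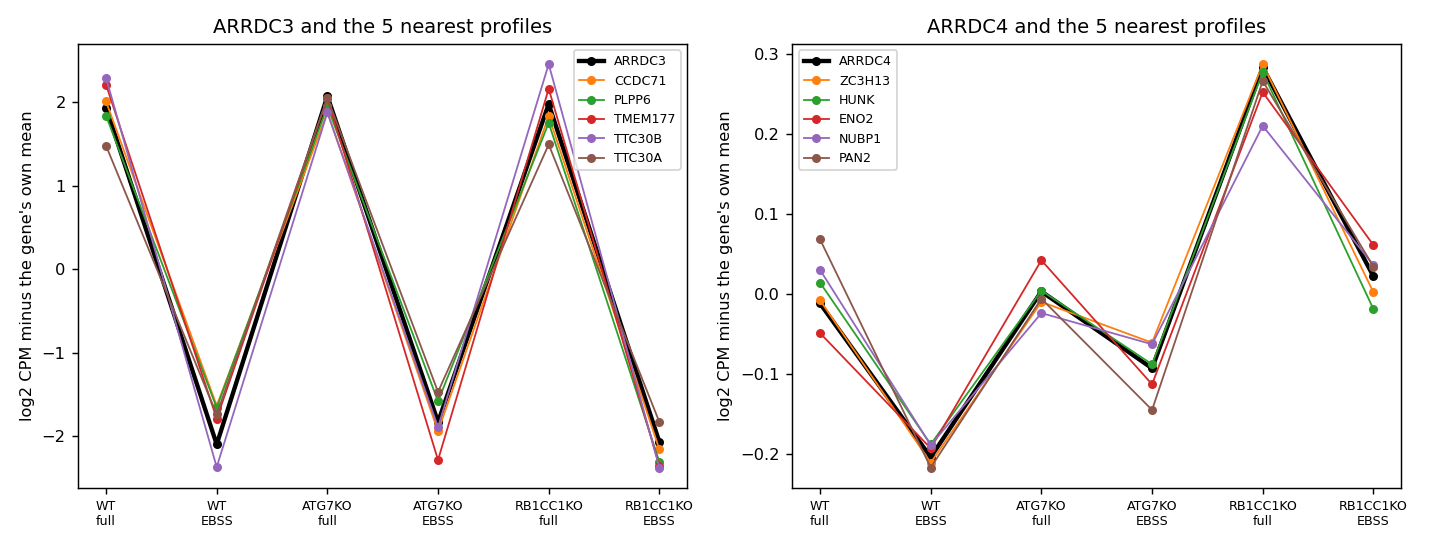
Group means of log2 CPM, centred on each gene's own mean, for ARRDC3 (left) and ARRDC4 (right, on a narrower axis) with the 5 protein-coding genes of nearest profile over the 6 groups. All 6 lines on the left swing down in EBSS in every genotype, and those on the right peak in the RB1CC1KO-labelled line in full medium.

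Among the ubiquitin ligases that alpha-arrestins recruit, more rose than fell on starvation. For this and the lists below, starvation called 64.5% of all tested genes in WT, 62.9% in ATG7KO and 65.1% in the RB1CC1KO-labelled line. Of 10 tested NEDD4-family ligases and adaptors, 6 were called higher and 1 lower in WT (median log2 fold change 0.32, against -0.02 over all genes), 6 and 2 in ATG7KO (0.39) and 4 and 1 in the RB1CC1KO-labelled line (0.25). NEDD4, the founding ligase, rose by 0.70 ± 0.07 in WT (adjusted p = 2.156e-10), NEDD4L by 0.59 ± 0.07 (adjusted p = 1.171e-09), SMURF1 by 0.53 ± 0.07 (adjusted p = 3.4e-08) and SMURF2 by 0.44 ± 0.07 (adjusted p = 4.442e-06). These 4 genes were called higher in all 3 lines, and WWP1 was called lower in all 3 (-0.45 ± 0.08 in WT).

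Of 14 tested ESCRT partners of ARRDC1 and arrestin cargo, 8 were higher and 2 lower in WT (median 0.25), 9 and 1 in ATG7KO (0.28) and 6 and 2 in the RB1CC1KO-labelled line (0.27). VPS4B, an ATPase that disassembles ESCRT-III, rose by 1.06 ± 0.07 in WT (adjusted p = 5.555e-15). The insulin receptor gene INSR rose by 0.63 ± 0.07 (adjusted p = 1.068e-09) and PDCD6IP, encoding the ESCRT partner ALIX, by 0.49 ± 0.06 (adjusted p = 5.222e-09). SLC11A2, the iron transporter DMT1, which ARRDC1 and ARRDC4 help to regulate, fell by 0.90 ± 0.08 (adjusted p = 1.334e-12). TSG101 itself rose by 0.22 ± 0.07 in WT (adjusted p = 0.005379).

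The factors that act on carbohydrate response elements and E boxes moved in both directions. Of 12 tested genes of the MondoA and MLX network, 6 were higher and 4 lower in WT (median 0.51), 6 and 4 in ATG7KO (0.48) and 6 and 3 in the RB1CC1KO-labelled line (0.48). MAX rose by 1.98 ± 0.07 in WT (adjusted p = 1.675e-23), and so did repressors that pair with it, MXD1 by 1.94 ± 0.08 (adjusted p = 4.57e-21) and MXD4 by 1.55 ± 0.11 (adjusted p = 4.877e-13). MXI1, MXD3 and MNT were likewise called higher in all 3 lines. MGA, a MAX partner with a T-box domain, fell by 1.19 ± 0.08 (adjusted p = 8.417e-16). MLXIP, which encodes MondoA, was at -0.19 ± 0.07 in WT (adjusted p = 0.01465), and 0.10 ± 0.07 in ATG7KO (adjusted p = 0.2186) and 0.12 ± 0.07 in the RB1CC1KO-labelled line (adjusted p = 0.1081) did not pass. Its partner MLX was called lower in WT (-0.16 ± 0.07, adjusted p = 0.04663) and ATG7KO (-0.24 ± 0.07, adjusted p = 0.004518). In the RB1CC1KO-labelled line MLX was at -0.53 ± 0.07 (adjusted p = 3.385e-08).

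In the thioredoxin and peroxiredoxin system, which includes the thioredoxin that TXNIP binds, more genes fell than rose. Of 19 tested genes, 2 were higher and 7 lower in WT (median -0.12), 0 and 9 in ATG7KO (-0.16) and 2 and 9 in the RB1CC1KO-labelled line (-0.15). Among all tested genes 32.1%, 30.6% and 33.3% were called lower. With upper-quartile scaling no gene of the list was called higher in any line while 14, 12 and 14 were lower. That scaling also placed the median of all genes at -0.17 in each line. PRDX4, a peroxiredoxin of the endoplasmic reticulum, fell by 0.43 ± 0.07 in WT (adjusted p = 1.614e-06), the mitochondrial glutaredoxin gene GLRX5 by 0.63 ± 0.08 (adjusted p = 5.454e-09) and TXN2 by 0.33 ± 0.07 (adjusted p = 5.199e-05). TXNRD1, thioredoxin reductase, rose by 0.25 ± 0.06 in WT (adjusted p = 0.0003271). TXN was at -0.04 ± 0.08 in WT (adjusted p = 0.6996) and fell by 0.48 ± 0.08 in ATG7KO (adjusted p = 1.619e-06) and by 0.27 ± 0.07 in the RB1CC1KO-labelled line (adjusted p = 0.002024).

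Genes of glucose transport, the step that TXNIP and ARRDC4 restrain, and of glycolysis split in direction. Of 24 tested genes, 3 were higher and 10 lower in WT (median -0.14), 5 and 6 in ATG7KO (-0.03) and 8 and 7 in the RB1CC1KO-labelled line (0.02, which became -0.12 with upper-quartile scaling). With that scaling 1, 2 and 3 genes were higher and 18, 13 and 10 lower. The glucose transporter SLC2A3 rose by 2.80 ± 0.13 in WT (adjusted p = 6.825e-20), whereas SLC2A6 fell by 1.05 ± 0.14 (adjusted p = 3.989e-08). SLC2A1, the transporter that TXNIP and ARRDC4 restrain, fell by 0.53 ± 0.07 in WT (adjusted p = 5.742e-08). It was at -0.23 ± 0.07 in ATG7KO (adjusted p = 0.005453) and at -0.02 ± 0.07 in the RB1CC1KO-labelled line, which did not pass (adjusted p = 0.7805). PGAM1, a phosphoglycerate mutase, fell by 0.65 ± 0.08 in WT (adjusted p = 5.38e-09).

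Of 6 tested arrestin-fold relatives, 2 were higher and 2 lower in WT (median -0.08), 3 and 1 in ATG7KO (0.12, or -0.04 with upper-quartile scaling) and 2 and 2 in the RB1CC1KO-labelled line (0.04, or -0.10 with that scaling). VPS26C, a subunit of the retriever complex, rose by 1.29 ± 0.07 in WT (adjusted p = 3.773e-18) and the retromer subunit VPS26A by 0.45 ± 0.08 (adjusted p = 3.618e-06). ARRB1, encoding beta-arrestin-1, fell by 0.65 ± 0.12 (adjusted p = 2.635e-05) and RGP1 by 0.19 ± 0.07 (adjusted p = 0.0175). ARRB2 was at -0.08 ± 0.07 in WT (adjusted p = 0.349).

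**Figure D5:**
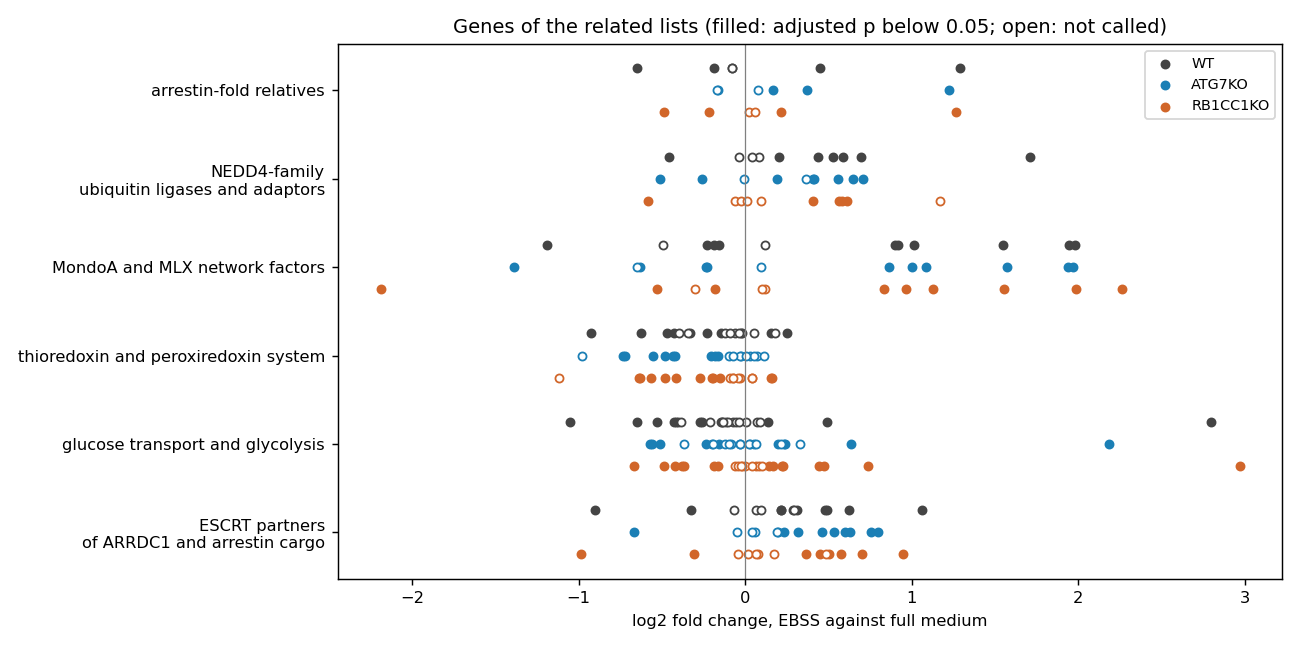
Log2 fold change, EBSS against full medium, of every tested gene in the 6 related lists, 1 point per gene and line (filled: adjusted p below 0.05; open: not called). The NEDD4-family and ESCRT lists lie mostly right of 0, and the thioredoxin list mostly left of it.

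Between lines in full medium, 0% to 30% of the tested genes of each list were called in ATG7KO against WT, beside 10.5% of all genes. There, 0 of 6 arrestin-fold relatives, 0 of 24 glycolysis genes and 0 of 14 ESCRT and cargo genes were called. NEDD4L was 0.43 ± 0.07 lower (adjusted p = 1.437e-05) and WWP2 0.30 ± 0.07 lower (adjusted p = 0.004005). HECW2 was higher, with a far larger SE (2.56 ± 0.62, adjusted p = 0.004129). MAX (-0.27; adjusted p = 0.007584) and MYC (-0.21; adjusted p = 0.03344) were lower, and TXN (0.32; adjusted p = 0.003652) and TXNRD1 (0.17; adjusted p = 0.04708) were higher.

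In the RB1CC1KO-labelled line against WT in full medium, 0% to 21.1% of each list were called, beside 17.2% of all genes. There, 0 of 6 arrestin-fold relatives were called and NDFIP1, a ligase adaptor, was the 1 called ligase gene (0.22; adjusted p = 0.03164). MGA was higher (0.25; adjusted p = 0.01051) and MNT lower (-0.26; adjusted p = 0.02918). TXNRD3 was lower (-1.07; adjusted p = 2.136e-07), while TXNRD1 was higher (0.21; adjusted p = 0.008572) as were TXN and GLRX5. Of the glycolysis list 4 genes were higher: ENO2, SLC2A1 (0.28; adjusted p = 0.004026), TPI1 and LDHA. SLC11A2 was higher (0.31; adjusted p = 0.001756) and the integrin gene ITGB4 lower (-0.62; adjusted p = 0.04836). In EBSS, where 31.6% of all genes were called for this line, 11 of 24 glycolysis genes were called higher and none lower, and of 12 MondoA and MLX network genes 4 were higher and 3 lower. For ATG7KO against WT in EBSS, 5.26% to 16.7% of each list were called, beside 13.2% of all genes.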

How the data were processed

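Read counts per gene were used as deposited by the authors, 1 table per library. The submitters' processing notes name STAR 2.4.2a, HTSeq 0.6.1p1, Picard, edgeR and DESeq2 and the build GRCh37. Per the labels' protocols, RNA came from independent biological replicates, and directional poly(A) libraries were read as 75-base single ends. The 5 HTSeq summary lines entered neither library sizes nor tests: reads in no feature came to 9.385% to 15.11% of counted reads and ambiguous reads to 2.076% to 2.42%. Symbols came from the gene name tables and GENCODE, which named 52526 of 63677 identifiers. Gene models and promoters are GRCh38, another build, and served for names, lengths, exon counts and promoter letters.

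Counts were fitted with edgeR 4.0.16 (R 4.3.3): filterByExpr, TMM, a mean per group over 18 libraries, robust quasi-likelihood tests, Benjamini-Hochberg over 15179 genes, called below 0.05. In data simulated for starvation in WT (15179 genes), the fit recovered 87% of 100 genes changed by 1 and 98% of 100 changed by 2 on the log2 scale. Only 200 genes were changed there, up and down in equal number, whereas starvation moved most genes. The simulation therefore does not test the scaling for starvation. Replicates differed beyond sampling noise, with no library deposited again. The members and lists were chosen with earlier results of these data known. Named genes are the members, their antisense genes, the targeted genes, the up to 4 genes of each list with the smallest p for starvation in WT, up to 2 called between lines, and the 5 nearest profiles. Other genes named with values (WWP1, TSG101, MLXIP, MLX, TXN, ARRB2, HECW2, GLRX5, TPI1, LDHA, MXI1, MXD3 and MNT in starvation, and the lineage markers named in EBSS) were chosen after their values were seen. Alternatives were upper-quartile and RLE scaling, DESeq2 1.42.0, no count filter, only the groups compared, a replicate block, leaving out each library, and the longest transcript as length. Protein sequences were not analysed here.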

Additional observations from a re-analysis of the deposited data

How the results depend on the processing

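The 4 measured members over 9 comparisons gave 36 values. A tested value counted as unchanged if it kept its direction and its side of the threshold. The untested ARRDC3 values, for starvation and response differences, counted so if they moved by less than the SD within groups. For the ARRDC3 response differences a change of sign was not counted. With RLE scaling, without the count filter and with only the groups compared, 36 were unchanged. DESeq2 left 35 unchanged and upper-quartile scaling 32. Upper-quartile scaling gave -0.45 for ARRDC1 on starvation in ATG7KO, -0.34 and -0.30 for ARRDC4 in WT and ATG7KO (all now past the threshold) and -4.24 for ARRDC3 in WT. It turned the list medians of arrestin-fold relatives to -0.040 (ATG7KO) and -0.10 (RB1CC1KO-labelled line), of glycolysis genes to -0.12 (RB1CC1KO-labelled line) and of epithelial markers to -0.15 (WT). DESeq2 gave -0.26 for ARRDC4 on starvation in the RB1CC1KO-labelled line (adjusted p = 0.06095). The cause was not tested.

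Leaving out single libraries, 231 of 264 values were unchanged by the same rule, 7 lost a call, 3 gained one and 23 uncalled values changed sign. The ARRDC3 response difference of the RB1CC1KO-labelled line from WT, counted as unchanged, ranged from -0.14 to 0.097. On starvation, ARRDC1 ranged from -0.55 to -0.15 in ATG7KO and from -0.48 to -0.24 in the RB1CC1KO-labelled line, and ARRDC4 from -0.36 to -0.18 in that line. Against WT in ATG7KO, ARRDC2 ranged from -0.043 to 0.12 in EBSS, and ARRDC4 from -0.053 to 0.094 in full medium and from -0.059 to 0.14 in EBSS. Against WT in the RB1CC1KO-labelled line, ARRDC3 ranged from -0.058 to 0.10 in full medium and from -0.10 to 0.12 in EBSS, and ARRDC4 from 0.21 to 0.38 in full medium. Response differences from WT ranged from -0.17 to 0.0021 (ATG7KO) and -0.088 to 0.14 (RB1CC1KO-labelled line) for ARRDC2, and from -0.071 to 0.12 and -0.21 to 0.016 for ARRDC4.

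Replicate numbers are shared across groups, but no label says that a number marks a shared batch. Deviations of same-numbered libraries correlated at -0.084 to 0.221, above 0.1 in 3 of 21 pairs, so the numbers were not taken as pairs. With the replicate block, 36 of 36 member values were unchanged by the same rule. The genes called for the response difference of ATG7KO went from 160 to 293 with that block, and to 281 without the count filter. When 1 library was left out, they ran from 71, without ATG7KO EBSS replicate 2, to 275, without WT EBSS replicate 3. Of these 12 counts, 9 moved by over 1.5 times. Without ATG7KO EBSS replicate 2, genes called for ATG7KO against WT in EBSS went from 2010 to 1235, and the response difference of the RB1CC1KO-labelled line went from 1238 genes to 788 without WT EBSS replicate 1 and to 824 without full-medium replicate 2 of that line. Depth limits ARRDC3 most, with 25 to 82 reads per EBSS library.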

Other observations

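ARRDC1 was set beside its neighbours on chromosome 9 after its low level in the RB1CC1KO-labelled line was seen. Of 44 tested genes within 1 Mb, 1 was called higher and 4 lower in that line against WT in full medium, with a median log2 fold change of -0.10 and a range from -0.99 to 0.95. Of all tested genes, 17.2% were called in that comparison. ARRDC1, at -1.12, lay below all 44 neighbours, a place that follows in part from its being picked for this value. The adjacent genes ZMYND19 (0.04) and EHMT1 (-0.08) were not called. Whether the region played a part was not tested.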
